A study of Homo sapiens with 18 samples.

Results

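Human microRNAs that were well detected in HEK293T cells or in the extracellular vesicles these cells release, and that belong to none of a list of named microRNA families, are described here. An entry was a member when its name began with hsa-miR-, when its mean over the 18 libraries reached 10 normalised reads, and when its microRNA number was not on that list. The rule gave 72 of the 1408 hsa-miR entries in a table of 2462 small RNA features. Another 32 entries reached the mean but were left out by their number. The members were thus chosen by their measured mean level over all libraries, and those means are given as a description. Just inside the limit lay miR-874-3p at a mean of 10.7, miR-27a-5p at 10.7, miR-378a-5p at 10.5 and miR-151a-5p at 10.5. Just outside lay miR-31-5p at 9.69, miR-455-3p at 9.45, miR-185-5p at 9.37 and miR-21-5p at 9.34.

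HEK293T is a human embryonic kidney line. Libraries came from ATG7-/- cells (clone F2), ATG12-/- cells (clone D9) and wild type cells, and from the vesicles of each, with 3 libraries in each of the 6 groups. Each knockout is 1 clone, so a difference between a knockout and wild type cannot be told apart from a difference between clones. All cultures, wild type included, were kept without serum for 24 h before collection. Total RNA was made into libraries with the SMARTer small RNA kit, in which RNA receives a poly(A) tail and its copy is extended by template switching, and was read as single 50 bp reads. The labels call the 3 samples of a group biological replicates without naming the cultures, so the p-values measure the spread between these samples. The ATG7 and ATG12 mRNAs are not analysed here, so the knockouts were not checked.

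A microRNA is cut from a hairpin, first by Drosha with DGCR8 in the nucleus and then by Dicer, and either arm of the hairpin (named 5p or 3p) can be loaded into an Argonaute protein. The loaded arm finds messenger RNAs mainly through its seed, the bases near its 5′ end, and lowers their translation and stability. Mirtrons skip Drosha because splicing frees their hairpin as a short intron. Cells release some microRNAs inside extracellular vesicles, and RNA-binding proteins help to choose which. ATG7 is the activating enzyme that starts the conjugation of ATG12 to ATG5 and of LC3 to membrane lipid, and the ATG12 conjugate drives the LC3 step. This LC3 conjugation machinery is used in autophagy and also in the loading of RNA-binding proteins into vesicles.

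The mature sequences of the members that the comparisons turn on are given with the seed, bases 2 to 8, in capitals. RefSeq (GRCh38.p14) held a sequence for 60 of the 72 members. The following members were higher in knockout vesicles in at least 1 comparison.
miR-28-3p: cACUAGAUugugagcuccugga
miR-877-5p: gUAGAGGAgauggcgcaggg
miR-342-3p: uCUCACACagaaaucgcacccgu
miR-99b-5p: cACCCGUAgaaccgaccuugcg
miR-191-5p: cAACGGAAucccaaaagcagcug
miR-423-5p: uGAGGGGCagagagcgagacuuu
miR-1306-5p: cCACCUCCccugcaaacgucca
miR-1226-3p: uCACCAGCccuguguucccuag
miR-574-3p: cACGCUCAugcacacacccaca
miR-92b-3p: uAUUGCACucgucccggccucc

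The next ones were lower in knockout vesicles.
miR-7-5p: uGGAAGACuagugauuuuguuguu
miR-6516-5p: uUUGCAGUaacaggugugagca
miR-6516-3p: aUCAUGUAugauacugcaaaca
miR-219a-5p: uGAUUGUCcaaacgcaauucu

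These were higher in knockout cells.
miR-9-3p: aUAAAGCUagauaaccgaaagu
miR-126-5p: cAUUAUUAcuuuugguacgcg
miR-615-3p: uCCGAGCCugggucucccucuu
miR-6511a-3p: cCUCACCAucccuucugccugc

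The last group differed between the vesicles and the cells of wild type cultures, and holds the other arm of the miR-126 hairpin.
miR-126-3p: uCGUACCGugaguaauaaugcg
miR-30c-5p: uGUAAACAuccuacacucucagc
miR-744-5p: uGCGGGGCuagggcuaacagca
miR-296-3p: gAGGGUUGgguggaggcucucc

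The 60 sequences carry 55 distinct seeds, and 5 seeds are shared by a pair of members each. The pairs are shown so that members with 1 seed can be compared base by base. How reads that match several entries were counted is not given in the sources used here.
miR-125a-5p: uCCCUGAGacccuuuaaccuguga
miR-125b-5p: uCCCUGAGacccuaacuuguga
miR-454-3p: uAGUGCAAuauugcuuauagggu
miR-130b-3p: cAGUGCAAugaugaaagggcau
miR-16-5p: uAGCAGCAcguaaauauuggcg
miR-15b-5p: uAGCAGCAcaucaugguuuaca
miR-30e-3p: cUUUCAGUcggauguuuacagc
miR-30a-3p: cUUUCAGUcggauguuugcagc
miR-23b-3p: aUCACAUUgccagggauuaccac
miR-23a-3p: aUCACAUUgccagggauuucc

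RefSeq entries were not matched for miR-151a-3p, miR-151a-5p, miR-186-5p, miR-425-5p and both arms of miR-505, miR-937, miR-4664 and miR-6845.

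Each value is a whole number of reads over the size factor of its library, and is given in normalised reads. In the vesicle libraries 1 read was worth 1.17 to 1.89 normalised reads and in the cell libraries 0.477 to 0.824. The libraries held 1881080 to 3382605 assigned reads from vesicles and 1188388 to 1804089 from cells, and the 2 ranges do not overlap. Members took 1926 to 3875 reads of a vesicle library and 3454 to 6214 of a cell library, with reads shared by several entries counted in each. The 4 members just inside the limit held 1 to 14 reads in a vesicle library, so their values move in steps of a read. The spread between replicates of a group was 5.56 to 91.4 times what counting noise gives, by chi-square over all features per degree of freedom. The 91.4 was between wild type vesicle replicates 1 and 2, and replicate 1 also stood apart from replicate 3 (55.1), while replicates 2 and 3 differed by 8.16. In ATG7-/- cells all pairs differed widely, with 66.3 for replicates 1 and 2, 45.1 for 1 and 3 and 59.9 for 2 and 3. Over the members alone, the median absolute log2 difference of these pairs was 0.40, 0.35 and 0.25. In wild type vesicles it was 0.49, 0.70 and 0.35, in the same order of pairs. No list used here defines HEK293T by microRNAs. Of the markers of blood, muscle, nerve, epithelium and fibroblasts in the table, all but miR-126-3p, a member, and miR-1-3p, at 5.15 to 37.7 in cells, had a median of at most 3.96 in vesicles and 0.637 in cells. Counts of members that use the wild type vesicles are given below with and without replicate 1.

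Most members were scarce. The median of the 72 means was 27.8 normalised reads, 30 members had a mean between 10 and 20, and 10 reached 100. The 12 highest held 46.4% of the summed means. miR-423-5p led with a mean of 252, followed by miR-342-3p (207), miR-191-5p (205), miR-24-3p (143) and miR-151a-3p (133). miR-6516-3p (119.8) and miR-374b-5p (112) came next, and the 6 arms of miR-937, miR-4664 and miR-6845 followed at about 100.

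**Figure D1:**
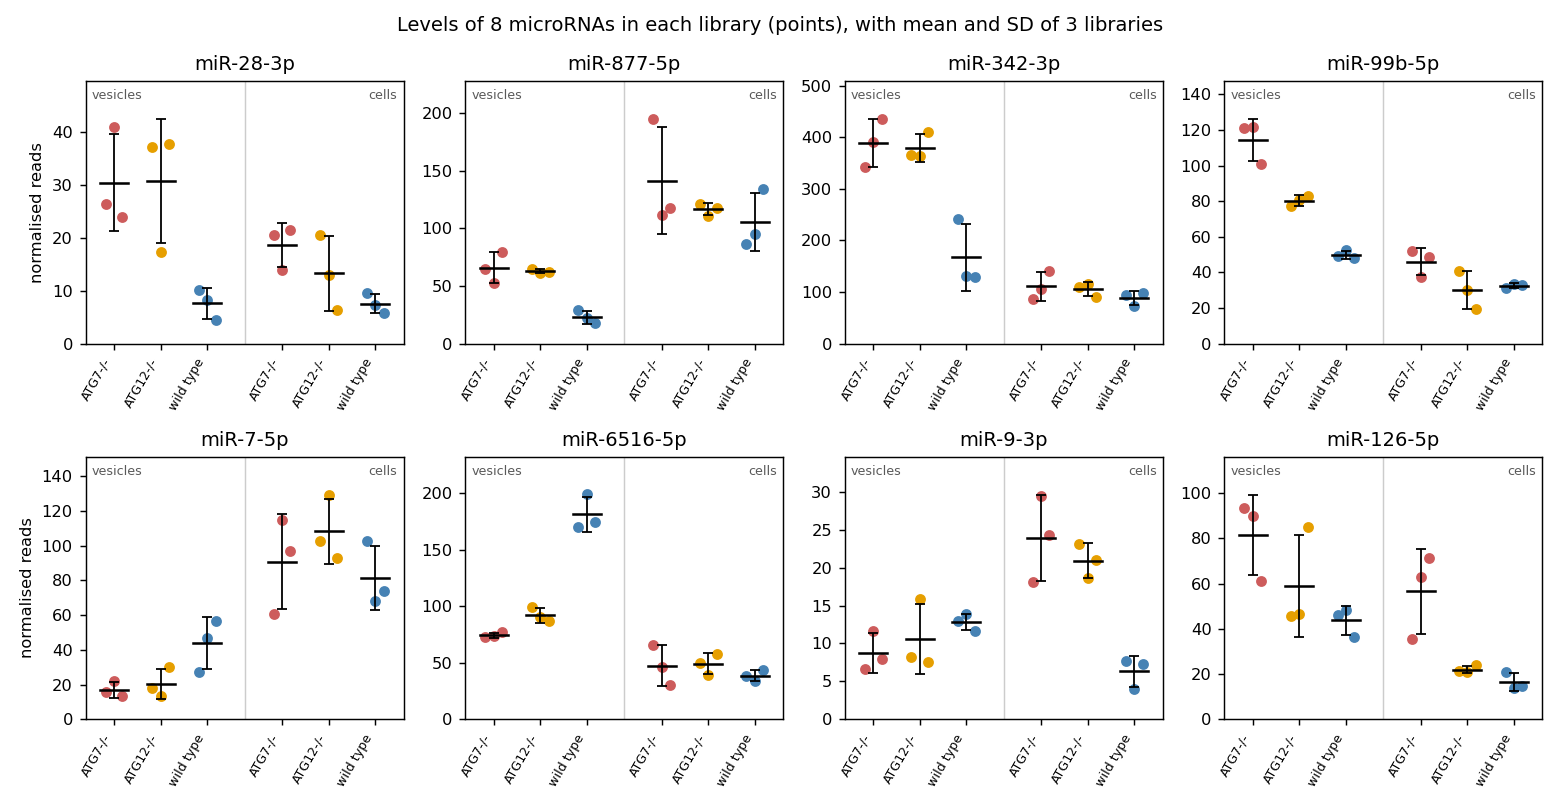
Normalised reads (y axis, linear, from 0) of 8 members in each of the 18 libraries by genotype (x axis), with vesicles left and cells right in each panel. Points are libraries, long lines group means and error bars SD over 3 libraries. miR-6516-5p is highest in wild type vesicles, while miR-342-3p is at 343 or more in all 6 knockout vesicle libraries and at most 241 in wild type vesicles.

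As a share of all assigned reads, the members took 0.112% ± 0.00449 in ATG7-/- vesicles, 0.135% ± 0.0149 in ATG12-/- vesicles and 0.107% ± 0.00882 in wild type vesicles (SD, n = 3 each). In cells they took 0.385% ± 0.0432 in ATG7-/-, 0.343% ± 0.00453 in ATG12-/- and 0.258% ± 0.0319 in wild type (SD, n = 3 each). By this share each knockout cell library was above every wild type cell library. As a share of microRNA reads without miR-6724-5p, an abundant entry outside the members, the cells had 19.9% in ATG7-/-, 18.6% in ATG12-/- and 18.8% in wild type, so the order of ATG12-/- and wild type cells turned. With miR-6724-5p taken out of the total of all reads, the share was 0.117% in ATG7-/- vesicles and 0.126% in wild type vesicles, so the order of those 2 groups turns round. These sums count every entry, so reads shared by several entries are counted in each. The arms of miR-937, miR-4664 and miR-6845, described next, thus enter the vesicle shares 6 times. Of these, miR-937-3p alone had 404 reads in ATG7-/-, 604 in ATG12-/- and 249 in wild type vesicles, summed over 3 libraries each. Shares with each source counted once were not computed. In bulk samples, fewer cells or vesicles that carry an RNA cannot be told apart from less of that RNA in each.

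Several entries are not separate measurements. The 6 arms of miR-937 (in SCRIB), miR-6845 (in NRBP2) and miR-4664 (in FAM83H) lie within 104734 bp of chromosome 8, and their values differed by only 0.159 to 1.51% between any 2 of them. They held 57 to 239 reads in every vesicle library and 0 to 3 reads in every cell library. miR-23a-5p, miR-27a-5p, miR-27a-3p and miR-24-2-5p lie within 373 bp of chromosome 19 and differed by 1.73 to 7.56%. Counting each of these sets once leaves 64 sources of reads. Both arms of miR-6516 (chr17:77089417-77089497, plus strand, GRCh38) lie inside the small Cajal body RNA SCARNA16, which the table lists as ACA47. ACA47 had 2810 reads over all libraries, against 2174 for miR-6516-3p and 1337 for miR-6516-5p, and reads of the arms cannot be told apart from pieces of ACA47. The counts by source of reads still take each arm of miR-6516 as a separate source.

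ATG7-/- vesicles held more of many members than wild type vesicles did. Of 70 members tested, 25 were higher and 4 lower at an adjusted p under 0.05, which is called a change from here on. The share called over all 850 features tested was 33.5% higher and 28.9% lower, so the count of higher members is near the background and the count of lower members is below it. The median log2 fold change was 0.51 over the members and 0.11 over all features. By source of reads, 22 of 62 were higher and 4 lower, with each arm of miR-6516 among the lower ones. With edgeR on the recovered reads 23 members were higher and 4 lower, and with DESeq2 18 and 4. A feature was tested when at least 3 of the fitted libraries reached 10 normalised reads. Of the 25, 6 did so only through the ATG7-/- libraries, where they are high, and their calls are no support: miR-23a-5p, miR-24-2-5p, miR-27a-3p, miR-27a-5p, miR-296-3p and miR-874-3p. Without wild type replicate 1 the members gave 33 higher and 4 lower. The 25 became 13 without ATG7-/- replicate 2, 14 without ATG7-/- replicate 3 and 16 without wild type replicate 3. Scaling by factors computed over all features (TMM) shifted the median over all features by -0.20 and left 14 higher, and scaling by library totals moved it by -0.37 and left 10. Under library totals 32.7% of all calls were higher, against 53.7% as deposited. Of the 25, 14 kept their call without any 1 library and 13 of these also under all 3 other scalings tried, wherever they were still tested. Both counts include miR-23a-5p and miR-27a-5p, which are among the 6 above and were not tested when an ATG7-/- library was left out. Their place in these counts is therefore no support either.

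miR-28-3p, from an intron of the LPP gene (chr3:188688781-188688866, plus strand), had 26.4, 40.9 and 23.9 normalised reads in ATG7-/- vesicles, against 10.1, 8.30 and 4.38 in wild type vesicles. It had the largest fold among the members called higher, 3.72-fold (log2 fold change 1.89, SE 0.39, adjusted p = 0.000794), and the groups did not overlap. The mirtron miR-877-5p (chr6:30584332-30584417, plus strand, in ABCF1) had 64.6, 52.6 and 79.6 in ATG7-/- vesicles and 28.9, 22.1 and 17.5 in wild type vesicles (log2 fold change 1.49, SE 0.23, adjusted p = 8.56e-05). The other mirtron tested in vesicles, miR-1226-3p (chr3:47849555-47849629, plus strand, in DHX30), had 21.1, 22.2 and 29.2 in ATG7-/- vesicles and 10.1, 6.91 and 5.84 in wild type vesicles (log2 fold change 1.56, SE 0.36, adjusted p = 0.00184). Both mirtrons were thus higher, with no overlap.

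Among abundant members, miR-342-3p, hosted by EVL and known from blood cells, had 343, 390.1 and 436 normalised reads in ATG7-/- vesicles, against 241, 131 and 128 in wild type vesicles. Its fold was 2.42 (log2 fold change 1.27, SE 0.21, adjusted p = 0.000166). miR-99b-5p, whose family represses the growth kinase gene MTOR, had 121, 121 and 101 in ATG7-/- vesicles and 49.1, 52.5 and 48.1 in wild type vesicles (log2 fold change 1.18, SE 0.16, adjusted p = 2.86e-05). Every ATG7-/- library was above every wild type library. miR-151a-3p had 191, 167 and 153 in ATG7-/- vesicles and 79.5, 84.3 and 61.3 in wild type vesicles (log2 fold change 1.18, SE 0.19, adjusted p = 0.000125). miR-191-5p, widely used as a reference microRNA, had 327, 347 and 288 in ATG7-/- vesicles and 214, 189 and 189.7 in wild type vesicles (log2 fold change 0.69, SE 0.14, adjusted p = 0.000629). The groups did not overlap for either, but scaling by library totals ended the call of miR-191-5p (adjusted p = 0.0551). The other arm of the miR-151a hairpin, miR-151a-5p, was called in neither knockout's vesicles. It had 9.23, 11.7 and 6.63 in ATG7-/- vesicles and 8.67, 11.1 and 8.75 in wild type vesicles.

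Low members were also among the higher ones. miR-1306-5p, from the DGCR8 transcript, had 17.1, 23.4 and 23.9 in ATG7-/- vesicles and 10.1, 8.30 and 5.84 in wild type vesicles (log2 fold change 1.32, SE 0.32, adjusted p = 0.00256). miR-505-5p had 25.1, 14.0 and 26.5 and 7.23, 4.15 and 8.75 in the same order of groups (log2 fold change 1.57, SE 0.40, adjusted p = 0.00375). The values of neither overlapped between the groups. The other arm of that hairpin, miR-505-3p, had 22.4, 26.9 and 19.9 in ATG7-/- vesicles and 43.4, 26.3 and 21.9 in wild type vesicles and was not called (log2 fold change -0.34, SE 0.28, adjusted p = 0.311). miR-574-3p (log2 fold change 1.00, SE 0.22) and miR-92b-3p (1.11, SE 0.26), which has the seed of the miR-25 and miR-92 family, were higher without overlap as well.

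Of the 7 members in the miR-23, miR-27 and miR-24 clusters, 6 were called higher in ATG7-/- vesicles. Of the 6, 4 are the chromosome 19 set that shares its reads and that was tested only because the ATG7-/- libraries reached 10, so that neither this count nor these p-values are support. As their example, miR-23a-5p had 11.9, 11.7 and 10.6 in ATG7-/- vesicles and 5.78, 2.77 and 1.46 in wild type vesicles (log2 fold change 1.64, SE 0.49, adjusted p = 0.0101). Those values amount to at most 10 reads in any of these libraries, and the calls of miR-24-2-5p and miR-27a-3p were lost without wild type replicate 3 (adjusted p = 0.0848 and 0.0515), that of miR-24-2-5p also without wild type replicate 2 (0.0545). The more abundant miR-23a-3p had 98.9, 102 and 92.8 in ATG7-/- vesicles and 54.9, 52.5 and 49.6 in wild type vesicles (log2 fold change 0.89, SE 0.17, adjusted p = 0.000445). The same seed stands in miR-23b-3p, where the log2 fold change was 0.51 (SE 0.18, adjusted p = 0.0219) and was lost without ATG7-/- replicate 2 (0.0776) or 3 (0.0604). It was also lost with TMM over all features (log2 fold change 0.32, adjusted p = 0.169) and library totals (0.14, adjusted p = 0.568). miR-24-3p, the most abundant of the clusters, had 132, 131 and 122 in ATG7-/- vesicles and 109.9, 94.0 and 127 in wild type vesicles and was not called (log2 fold change 0.23, SE 0.19, adjusted p = 0.323).

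The other higher members were mostly near the limit of the test. miR-296-3p had 11.9, 10.5 and 10.6 in ATG7-/- vesicles and 2.89, 6.91 and 1.46 in wild type vesicles (log2 fold change 1.50, SE 0.51, adjusted p = 0.0194). It was tested only through the ATG7-/- libraries, and its call was lost without wild type replicate 3 (0.0753). miR-126-5p, the 5p arm of a hairpin in the endothelial gene EGFL7, had 93.6, 89.9 and 61.0 and 46.3, 48.4 and 36.5 in the same order (log2 fold change 0.87, SE 0.26, adjusted p = 0.0111) and also lost its call without wild type replicate 3 (0.05). The calls of miR-125a-5p, miR-149-5p, miR-183-5p, miR-425-5p, miR-744-5p and miR-874-3p had log2 fold changes of 0.51, 0.93, 0.69, 0.65, 1.11 and 1.30. None of these 6 kept its call when each library was left out in turn. miR-125a-5p and miR-149-5p kept it only without wild type replicate 1, with an adjusted p of up to 0.167 and 0.138 otherwise. miR-183-5p (up to 0.170) and miR-744-5p (up to 0.140) lost it without replicate 2 or 3 of either group. miR-425-5p kept it only without ATG7-/- replicate 3 (otherwise up to 0.124), and miR-874-3p lost it without ATG7-/- replicate 2 or 3 or wild type replicate 1 (up to 0.0689).

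The 4 lower members included both arms of 1 hairpin. miR-6516-5p had 72.5, 73.6 and 76.9 normalised reads in ATG7-/- vesicles, against 171, 199 and 175 in wild type vesicles (log2 fold change -1.27, SE 0.15, adjusted p = 7.23e-06). miR-6516-3p had 104, 109.8 and 96.8 in ATG7-/- vesicles and 198, 225 and 209 in wild type vesicles (log2 fold change -1.02, SE 0.15, adjusted p = 5.33e-05). In both, every knockout library lay below every wild type library, and ACA47, in which they lie, averaged 124 ± 7.10 in ATG7-/- vesicles and 273 ± 7.84 in wild type vesicles (SD, n = 3 each). miR-7-5p, a repressor of EGFR that the circular RNA CDR1as binds, had 15.8, 22.2 and 13.3 in ATG7-/- vesicles and 27.5, 47.0 and 56.9 in wild type vesicles (log2 fold change -1.28, SE 0.36, adjusted p = 0.00675), again with no overlap. The other arm of the miR-7-1 hairpin, miR-7-1-3p, was called in neither knockout's vesicles. It had 22.4, 19.9 and 15.9 in ATG7-/- vesicles and 20.2, 19.4 and 23.3 in wild type vesicles. miR-219a-5p, known from the maturation of oligodendrocytes, had 10.5, 9.34 and 5.30 in ATG7-/- vesicles and 15.9, 15.2 and 29.2 in wild type vesicles (log2 fold change -1.15, SE 0.40, adjusted p = 0.0233), and its call was lost without ATG7-/- replicate 3 (0.096) or wild type replicate 3 (0.114). The other arm of the miR-219a-2 hairpin, miR-219a-2-3p, is also a member, and the values of the arms differed by 14.5%. miR-219a-2-3p had 7.91, 7.01 and 3.98 in ATG7-/- vesicles and 4.34, 9.68 and 18.97 in wild type vesicles, which overlap. Too few vesicle libraries reached 10 for it to be tested there. Whether the arms share reads was not tested.

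**Figure D2:**
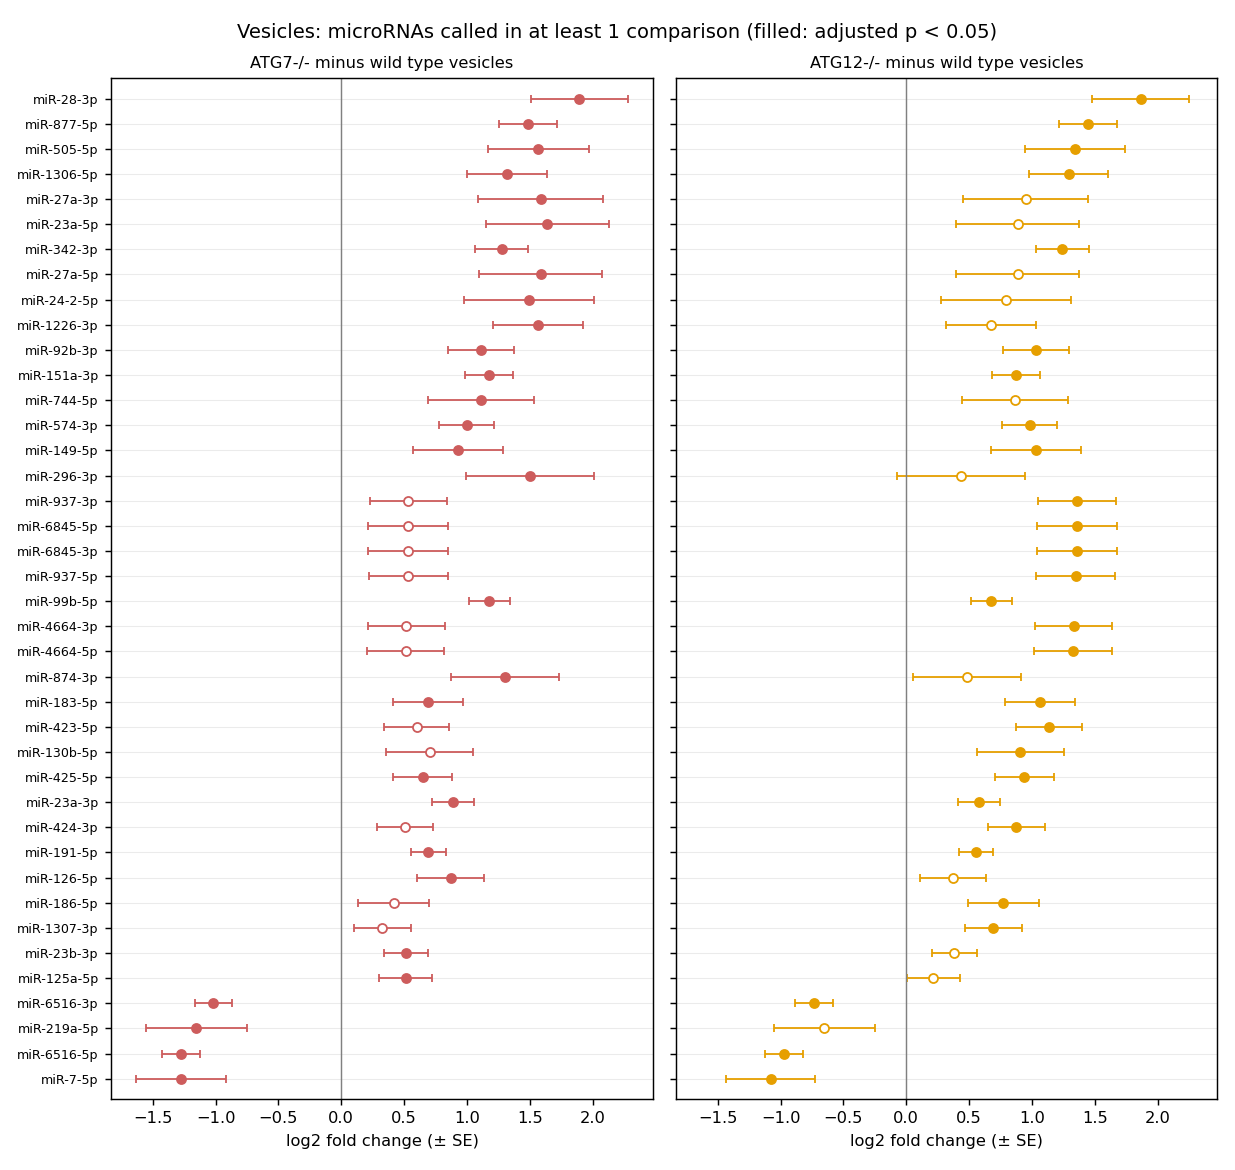
Log2 fold changes against wild type vesicles (bars are SE) of the 40 members called in at least 1 knockout, with ATG7-/- and ATG12-/- vesicles side by side; filled points were called. miR-28-3p lies at 1.89 in ATG7-/- and 1.87 in ATG12-/- vesicles, and miR-6516-5p at -1.27 and -0.97 in the same order.

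ATG12-/- vesicles showed 25 members higher and 3 lower of 70 tested, against 22.6% higher and 21.1% lower over all 850 features. The median log2 fold change was 0.58 over the members and 0.05 over all features. By source of reads, 20 of 62 were higher and 3 lower, again with each arm of miR-6516 among the lower ones. With edgeR on the recovered reads 24 members were higher and 3 lower, and with DESeq2 21 and 4. Without wild type replicate 1 the members gave 30 higher and 4 lower. Without ATG12-/- replicate 3, 5 were lower. Library totals left 16 higher and shifted the median over all features by -0.35. The share of all calls that were higher, 51.8% as deposited, was 41.1% with TMM over all features, 22.5% with library totals and 39.8% with TMM over microRNAs. Of the 25, 19 kept their call without any 1 library and 16 of these also under the 3 other scalings. This comparison uses the wild type libraries that the ATG7-/- comparison uses, so the 2 are not independent and their values are set side by side without a test of their likeness.

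miR-28-3p had 37.2, 17.2 and 37.7 normalised reads in ATG12-/- vesicles, against the wild type values given above (log2 fold change 1.87, SE 0.39, adjusted p = 0.00154). miR-877-5p had 64.8, 61.0 and 62.2 in ATG12-/- vesicles (log2 fold change 1.44, SE 0.23, adjusted p = 0.000264), and no library fell into the wild type range. The other mirtron, miR-1226-3p, had 19.3, 10.6 and 9.43 in ATG12-/- vesicles and 10.1, 6.91 and 5.84 in wild type vesicles, which overlap, and was not called (log2 fold change 0.68, SE 0.36, adjusted p = 0.148). miR-342-3p had 365, 363 and 411 in ATG12-/- vesicles (log2 fold change 1.24, SE 0.21, adjusted p = 0.000455), all above the highest wild type value of 241. miR-1306-5p had 17.9, 26.5 and 18.9 (log2 fold change 1.29, SE 0.32, adjusted p = 0.00487) and did not overlap with wild type. miR-505-5p had 15.2, 13.3 and 28.3 (log2 fold change 1.34, SE 0.40, adjusted p = 0.0149), but its call was lost without ATG12-/- replicate 3 (0.0759) or wild type replicate 2 (0.0596).

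The miR-191 and miR-425 cluster, 1 transcript from the DALRD3 locus on chromosome 3, had both members higher in ATG12-/- vesicles. miR-191-5p had 263, 302 and 307 in ATG12-/- vesicles (log2 fold change 0.55, SE 0.14, adjusted p = 0.00508), and library totals ended this call (adjusted p = 0.231). miR-425-5p had 41.4, 51.7 and 47.1 in ATG12-/- vesicles and 23.1, 23.5 and 24.8 in wild type vesicles (log2 fold change 0.94, SE 0.24, adjusted p = 0.00547). In ATG7-/- vesicles it had 46.2, 42.0 and 27.8 (log2 fold change 0.65, SE 0.24, adjusted p = 0.0282). Every knockout value of the pair lay above every wild type value in both knockouts.

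miR-423-5p, the most abundant member, had 225, 276 and 253 in ATG12-/- vesicles and 184, 77.4 and 102 in wild type vesicles (log2 fold change 1.14, SE 0.26, adjusted p = 0.00305). In ATG7-/- vesicles it had 142, 204 and 175, which overlap the wild type values, and was not called (log2 fold change 0.60, SE 0.26, adjusted p = 0.0605). Its other arm, miR-423-3p, had 102, 82.2 and 79.2 in ATG12-/- vesicles and 82.4, 55.3 and 42.3 in wild type vesicles and was not called (log2 fold change 0.59, SE 0.26, adjusted p = 0.0923). miR-424-3p, which is listed with the miR-15 and miR-16 family by its number but carries another seed, had 60.7, 39.8 and 52.8 in ATG12-/- vesicles and 31.8, 24.9 and 24.8 in wild type vesicles (log2 fold change 0.88, SE 0.23, adjusted p = 0.00655), and library totals ended its call (0.0738). miR-183-5p, of a cluster known from sensory organs, had 66.2, 65.0 and 73.5 in ATG12-/- vesicles and 50.6, 23.5 and 27.7 in wild type vesicles (log2 fold change 1.06, SE 0.28, adjusted p = 0.00726). Wild type replicate 1, the library that stands apart, was the highest wild type library for miR-423-5p, miR-424-3p and miR-183-5p.

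miR-99b-5p had 77.2, 80.9 and 83.0 in ATG12-/- vesicles (log2 fold change 0.68, SE 0.16, adjusted p = 0.00416), above all wild type values, and library totals ended its call (0.118). miR-151a-3p had 117, 172 and 128 (log2 fold change 0.88, SE 0.19, adjusted p = 0.00222), also above all wild type values. miR-574-3p and miR-92b-3p had log2 fold changes of 0.98 (SE 0.22) and 1.03 (SE 0.26). Of the miR-23, miR-27 and miR-24 clusters, 1 of 7 members was called, miR-23a-3p with 67.6, 86.2 and 83.0 in ATG12-/- vesicles (log2 fold change 0.58, SE 0.17, adjusted p = 0.0136). That call was lost without ATG12-/- replicate 2 (0.0603) or 3 (0.0506). Of the other members called higher, miR-1307-3p, miR-130b-5p, miR-149-5p and miR-186-5p had log2 fold changes of 0.69, 0.91, 1.03 and 0.77, and each lost its call without 3 or more of the libraries and under at least 2 other scalings. The chromosome 19 set that shares its reads was not called, with miR-23a-5p at 8.27, 7.96 and 3.77 in ATG12-/- vesicles (log2 fold change 0.89, SE 0.49, adjusted p = 0.168).

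The 6 chromosome 8 arms make up 6 of the 25 calls and are 1 source of reads. miR-937-3p, as their example, had 185, 306 and 451 in ATG12-/- vesicles, against 163, 108 and 84.6 in wild type vesicles (log2 fold change 1.36, SE 0.31, adjusted p = 0.00291). Over the 6 arms the log2 fold change was 1.33 to 1.36. In ATG7-/- vesicles miR-937-3p had 166, 209 and 131 and was not called (log2 fold change 0.53, SE 0.31, adjusted p = 0.150). ATG12-/- replicate 3 held the most and wild type replicate 3 the least.

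The 3 members lower in ATG12-/- vesicles were both arms of miR-6516 and miR-7-5p. miR-6516-5p had 99.3, 90.2 and 86.7 in ATG12-/- vesicles (log2 fold change -0.97, SE 0.15, adjusted p = 0.000207) and miR-6516-3p had 145, 117 and 119 (log2 fold change -0.73, SE 0.15, adjusted p = 0.00144), each below every wild type library. ACA47 averaged 229 ± 9.61 in ATG12-/- vesicles and 273 ± 7.84 in wild type vesicles (SD, n = 3 each). miR-7-5p had 17.9, 13.3 and 30.2 in ATG12-/- vesicles and 27.5, 47.0 and 56.9 in wild type vesicles (log2 fold change -1.08, SE 0.36, adjusted p = 0.0254), which overlap. Its call was lost without ATG12-/- replicate 1 (0.0655) or 2 (0.107), and without wild type replicate 2 (0.0764) or 3 (0.119). miR-219a-5p had 13.8, 15.9 and 7.54 in ATG12-/- vesicles and was not called (log2 fold change -0.65, SE 0.40, adjusted p = 0.218).

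Families without a call in either knockout's vesicles were the miR-30 family, which is known to repress the autophagy gene BECN1, and the miR-103 and miR-107 family. miR-30c-5p had 55.4, 28.0 and 42.4 in ATG7-/- vesicles, 55.2, 50.4 and 33.9 in ATG12-/- vesicles and 69.4, 52.5 and 37.9 in wild type vesicles, which overlap. None of the 3 members listed with the family by their number had a call. Of these, miR-30a-3p and miR-30e-3p are 3p arms that carry another seed than miR-30c-5p. miR-16-5p, a repressor of BCL2, had 26.4, 28.0 and 26.5 in ATG7-/- vesicles, 8.27, 31.8 and 41.5 in ATG12-/- vesicles and 41.9, 51.2 and 43.8 in wild type vesicles. Its log2 fold change was -0.73 (SE 0.43, adjusted p = 0.160) for ATG7-/- and -0.98 (SE 0.43, adjusted p = 0.085) for ATG12-/-. Neither was called, although every knockout library lay below every wild type library. miR-128-3p, known from brain, had 15.8, 45.5 and 34.5, 30.3, 33.1 and 39.6 and 47.7, 23.5 and 32.1 in ATG7-/-, ATG12-/- and wild type vesicles, and the groups overlap. No entry of the miR-26, miR-29, miR-34 and miR-449, miR-148 and miR-152, miR-181, miR-200 or miR-302 and miR-371 families, of the C19MC cluster, of the imprinted DLK1-DIO3 cluster or of the capped, Drosha-independent microRNAs was a member.

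Set directly against each other, ATG12-/- and ATG7-/- vesicles differed in few members. Of 70 tested, 6 were higher and 2 lower in ATG12-/- vesicles, against 26.6% and 23.3% over all 850 features, and the members' median log2 difference was -0.03. The 6 higher ones are the chromosome 8 arms, 1 source of reads: miR-937-3p had 185, 306 and 451 in ATG12-/- vesicles and 166, 209 and 131 in ATG7-/- vesicles (log2 fold change 0.82, SE 0.31, adjusted p = 0.0409). miR-99b-5p had 77.2, 80.9 and 83.0 in ATG12-/- vesicles and 121, 121 and 101 in ATG7-/- vesicles (log2 fold change -0.50, SE 0.16, adjusted p = 0.0215). miR-454-3p had 1.38, 7.96 and 11.3 in ATG12-/- vesicles and 27.7, 11.7 and 17.2 in ATG7-/- vesicles (log2 fold change -1.55, SE 0.58, adjusted p = 0.0394). Neither pair of groups overlaps.

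All 8 of these calls were lost without some library. The 6 higher calls were all lost without ATG12-/- replicate 2 or 3 or without ATG7-/- replicate 1 or 3, where miR-937-3p had an adjusted p of 0.0989, 0.193, 0.0835 and 0.153. miR-99b-5p was lost without ATG12-/- replicate 1 (0.0568) or 2 (0.0561), ATG7-/- replicate 1 (0.0835) or 2 (0.0727), and with TMM over all features (0.0503). miR-454-3p was lost without ATG12-/- replicate 1 (0.165), ATG7-/- replicate 1 (0.143) or ATG7-/- replicate 3 (0.086).

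In cells, the called members were higher in the knockouts. Of 64 members tested in cells, 18 were higher and 0 lower in ATG7-/- cells, where edgeR on the recovered reads called 18 higher and 0 lower and DESeq2 called 17 and 0. The background was 8.44% higher and 8.32% lower over 853 features. The median log2 fold change was 0.51 over the members, 60 of which were above 0, and -0.09 over all features. At an unadjusted p under 0.05, 26 were higher and 0 lower. The share over all features at that threshold is not given here, so this count is a description only. The 8 members not tested were too low in cells: the 6 chromosome 8 arms, miR-126-3p and miR-125b-5p. Of the 18, miR-1226-3p and miR-28-3p would not have been tested without the ATG7-/- libraries, where they are high. The 18 became 11 without ATG7-/- replicate 3, 10 without wild type replicate 1 and 8 without wild type replicate 2. Scaling by TMM factors over microRNAs shifted the median over all features by -0.44 and left 5 members higher and 2 lower. Under that scaling 4.71% of all calls were higher, and under library totals 64.1%, against 50.3% as deposited. Only miR-9-3p, miR-126-5p, miR-615-3p and miR-6511a-3p kept their call without each of the libraries and under each of the 3 other scalings.

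miR-9-3p, an arm of the miR-9 hairpins that are known from neural progenitors, had 18.1, 29.5 and 24.3 normalised reads in ATG7-/- cells, against 7.64, 3.96 and 7.30 in wild type cells. The lowest knockout value was above the highest wild type value, and the fold was 3.46 (log2 fold change 1.79, SE 0.29, adjusted p = 0.00117). The hairpins lie on chromosomes 1, 5 and 15 and give the same arm. The other arm, miR-9-5p, is no member and had a median of 0 in the cell libraries, as had the neuron marker miR-124-3p.

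miR-126-5p had 35.4, 63.1 and 71.4 in ATG7-/- cells and 21.0, 13.9 and 14.6 in wild type cells, without overlap (log2 fold change 1.68, SE 0.26, adjusted p = 0.000995). Its hairpin (chr9:136670602-136670686, plus strand) lies in EGFL7. The 3p arm, miR-126-3p, was too low to be tested in cells and had 14.0, 17.2 and 9.28 in ATG7-/- cells and 1.91, 0.660 and 6.57 in wild type cells. The order of the groups was the same in both arms.

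miR-6511a-3p had 56.0, 27.0 and 65.7 in ATG7-/- cells and 19.1, 14.5 and 20.4 in wild type cells (log2 fold change 1.33, SE 0.30, adjusted p = 0.0113). miR-615-3p, hosted by HOXC5, had 65.9, 50.8 and 69.2 in ATG7-/- cells and 30.6, 34.3 and 33.6 in wild type cells (log2 fold change 0.89, SE 0.17, adjusted p = 0.0037). The mirtron miR-1226-3p had 17.3, 7.37 and 12.8 in ATG7-/- cells and 4.46, 3.30 and 5.84 in wild type cells (log2 fold change 1.24, SE 0.37, adjusted p = 0.0329), and only knockout libraries reached the 10 needed for a test. All 3 were without overlap, but the call of miR-1226-3p was lost without wild type replicate 1 (0.0771), 2 (0.122) or 3 (0.0539). Without ATG7-/- replicate 1 or 3, miR-1226-3p was not tested.

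Among abundant members, miR-24-3p had 208, 257 and 207 in ATG7-/- cells and 159, 123 and 146 in wild type cells (log2 fold change 0.65, SE 0.15, adjusted p = 0.0134), and miR-151a-3p had 152, 194 and 215 and 103, 98.3 and 112 in the same order (log2 fold change 0.82, SE 0.15, adjusted p = 0.00304). miR-23a-3p had 105, 106 and 127 in ATG7-/- cells and 65.6, 58.1 and 65.7 in wild type cells (log2 fold change 0.82, SE 0.15, adjusted p = 0.00256). The knockout libraries of these 3 were above all wild type libraries. miR-24-3p was lost without wild type replicate 2 (0.0693), and TMM over microRNAs ended all 3 calls, with an adjusted p of 0.279 for miR-24-3p, 0.0691 for miR-151a-3p and 0.0596 for miR-23a-3p.

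Both members of the miR-191 and miR-425 cluster were higher in ATG7-/- cells. miR-191-5p had 166, 154 and 188 in ATG7-/- cells and 94.9, 86.4 and 149.7 in wild type cells (log2 fold change 0.65, SE 0.19, adjusted p = 0.0334), and miR-425-5p had 38.7, 45.0 and 42.8 and 26.1, 23.7 and 20.4 in the same order (log2 fold change 0.83, SE 0.23, adjusted p = 0.027). miR-191-5p lost its call without ATG7-/- replicate 1 (0.0578) or 3 (0.110) or wild type replicate 1 (0.124) or 2 (0.155). miR-425-5p lost it without ATG7-/- replicate 2 (0.0612) or 3 (0.0704) or wild type replicate 2 (0.0805) or 3 (0.0897). miR-28-3p had 20.6, 13.9 and 21.4 in ATG7-/- cells and 9.56, 7.26 and 5.84 in wild type cells (log2 fold change 1.20, SE 0.37, adjusted p = 0.0414), and of the 6 libraries only ATG7-/- replicate 2 could be left out without losing the call, with an adjusted p of up to 0.122. The remaining higher members had log2 fold changes of 0.98 (miR-151a-5p), 0.75 (miR-324-3p), 0.68 (miR-183-5p), 0.66 (miR-423-3p), 0.65 (miR-130b-3p), 0.51 (miR-331-3p) and 0.50 (miR-374b-5p). Of these only miR-183-5p kept its call without any 1 library, and TMM over microRNAs ended it (0.220). miR-130b-3p lost it without any library (adjusted p up to 0.123) and miR-151a-5p without any but ATG7-/- replicate 1 (0.145). miR-324-3p lost it without wild type replicate 1 or 3 (0.0697) and miR-423-3p without wild type replicate 2 or 3 (0.0792). miR-331-3p lost it without replicate 1 or 2 of either group (0.192), and miR-374b-5p without ATG7-/- replicate 2 or 3 or wild type replicate 1 or 2 (0.124).

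The ATG7-/- vesicle and cell comparisons share no library. Of 62 members tested in both, 25 were called higher in ATG7-/- vesicles and 18 in ATG7-/- cells, and 8 were in both lists, 32.0% of the vesicle list and 44.4% of the cell list. Over all 801 features tested in both, 35 were in both lists, 13.0% of 270 higher in vesicles and 52.2% of 67 higher in cells. The 8 members were miR-1226-3p, miR-126-5p, miR-151a-3p, miR-183-5p, miR-191-5p, miR-23a-3p, miR-28-3p and miR-425-5p. Of these, miR-1226-3p and miR-28-3p would not have been tested in cells without the ATG7-/- libraries, where they are high. The 25 vesicle calls also hold the 6 that were tested only through the ATG7-/- vesicles, so the overlap is a description only.

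ATG12-/- cells held 7 of 64 members higher and 0 lower, against 7.50% higher and 18.2% lower over all 853 features. edgeR on the recovered reads called 8 higher and 0 lower, and DESeq2 called 6 and 0. The median log2 fold change was 0.24 over the members and -0.13 over all features. At an unadjusted p under 0.05, 12 were higher and 1 lower, again without a share over all features at that threshold and as a description only. Of the 7, miR-1226-3p and miR-194-5p would not have been tested without the ATG12-/- libraries, where they are high. The wild type cells are those of the ATG7-/- comparison. The 7 became 2 without ATG12-/- replicate 1, 2 or 3 or wild type replicate 1 or 2. As deposited 29.2% of all calls were higher, with TMM over all features 41.5%, with library totals 63.1% (12 members higher) and with TMM over microRNAs 7.43% (2 members higher, 1 lower).

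miR-9-3p had 23.2, 18.6 and 21.0 normalised reads in ATG12-/- cells, against 7.64, 3.96 and 7.30 in wild type cells, with no overlap (log2 fold change 1.62, SE 0.29, adjusted p = 0.00187). It was the only member of the 7 whose call held without any 1 library and under all 3 other scalings. miR-1226-3p had 16.1, 9.06 and 9.79 in ATG12-/- cells and 4.46, 3.30 and 5.84 in wild type cells (log2 fold change 1.18, SE 0.37, adjusted p = 0.0342). miR-194-5p, known from liver and gut, had 19.3, 16.2 and 12.6 in ATG12-/- cells and 6.37, 5.28 and 9.49 in wild type cells (log2 fold change 1.10, SE 0.37, adjusted p = 0.0455). Neither overlapped with wild type, yet miR-1226-3p lost its call without ATG12-/- replicate 2 (0.0509) or 3 (0.0587) or wild type replicate 1 (0.0905) or 2 (0.109). Without ATG12-/- replicate 1, miR-1226-3p was not tested. The call of miR-194-5p was lost without any of the 6 libraries, with an adjusted p of up to 0.146. The log2 fold changes of miR-324-3p, miR-423-3p, miR-331-3p and miR-183-5p were 0.75, 0.61, 0.52 and 0.45. miR-183-5p lost its call without any of the 6 libraries (adjusted p up to 0.115) and miR-331-3p without any but wild type replicate 3 (0.146). miR-324-3p lost it without ATG12-/- replicate 2 or 3 or wild type replicate 1 or 3 (0.066), and miR-423-3p without ATG12-/- replicate 1 or wild type replicate 2 or 3 (0.0737).

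Some members called in ATG7-/- cells were not called in ATG12-/- cells, a difference that was not itself tested. miR-126-5p had 21.2, 21.0 and 23.8 in ATG12-/- cells and 21.0, 13.9 and 14.6 in wild type cells and was not called (log2 fold change 0.42, SE 0.26, adjusted p = 0.273). miR-425-5p had 15.4, 22.9 and 12.6 in ATG12-/- cells and was not called (log2 fold change -0.48, SE 0.23, adjusted p = 0.150). Between ATG12-/- vesicles and ATG12-/- cells, 1 member, miR-183-5p, was called higher in both, 5.26% of the 19 vesicle calls that were also tested in cells and 14.3% of the 7 cell calls. Over all features tested in both, 31 were in both lists, 17.5% of 177 higher in vesicles and 50.0% of 62 higher in cells.

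**Figure D3:**
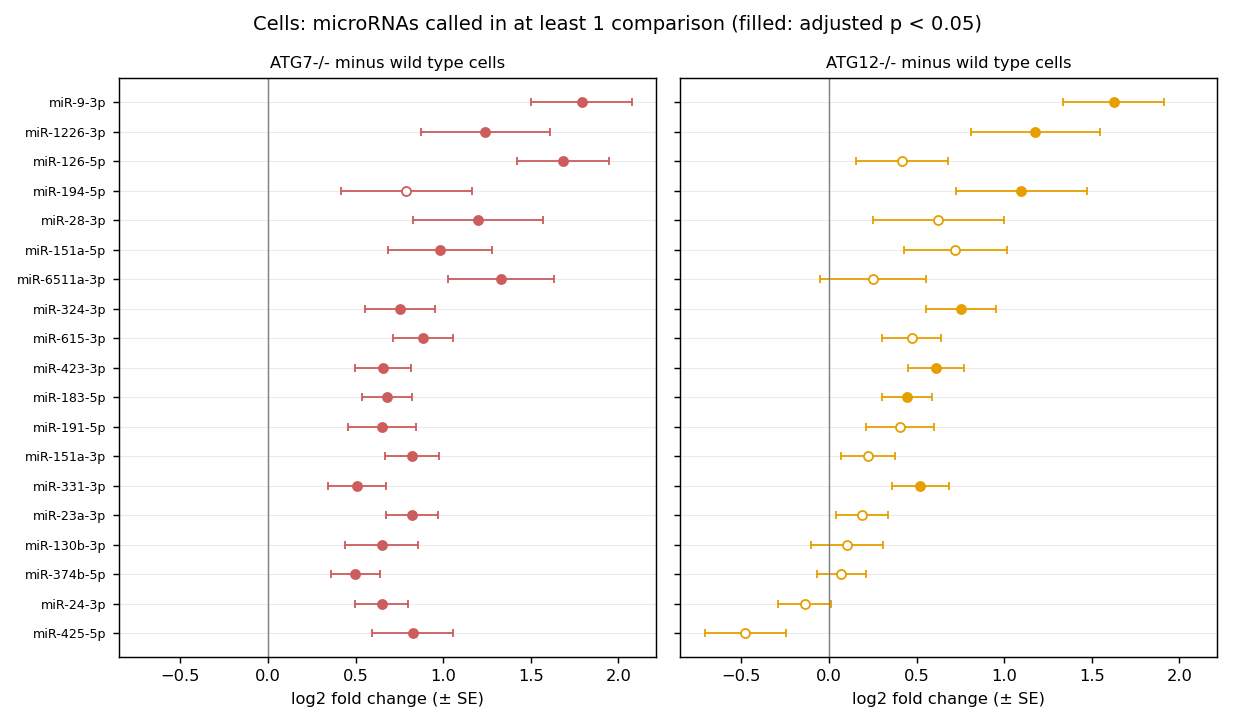
Log2 fold changes against wild type cells (bars are SE) of the 19 members called in at least 1 knockout, with ATG7-/- and ATG12-/- cells side by side; filled points were called. miR-9-3p lies at 1.79 in ATG7-/- and 1.62 in ATG12-/- cells, while miR-126-5p is at 1.68 in ATG7-/- cells and 0.42 in ATG12-/- cells.

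Within wild type cultures, vesicles and cells differed in most members. Of 72 tested, 20 were higher and 22 lower in vesicles, against 38.9% and 42.9% over all 905 features, and the median log2 difference was 0.02 over the members and -0.13 over all features. By source of reads, 15 of 64 were higher and 19 lower, with each arm of miR-6516 among the higher ones. Without wild type vesicle replicate 1 the counts were 18 higher and 22 lower. All vesicle libraries were deeper than all cell libraries, and scaling by library totals shifted the median over all features by -1.51, so that 8 members were higher and 54 lower and 18.3% of all calls were higher, against 47.6% as deposited. The 8 that stayed higher were the 6 chromosome 8 arms, miR-126-3p and miR-6516-5p. All 22 lower members stayed lower under each of the 3 other scalings. Directions below are those of the deposited scaling. Of the 20 higher members, 9 turned below 0 under library totals, and 4 of these 9, miR-342-3p, miR-191-5p, miR-125a-5p and miR-99b-5p, were then called lower. Another 15 members that were above 0 but not called as deposited were called lower under library totals.

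The 6 chromosome 8 arms were seen almost only in vesicles. miR-937-3p had 163, 108 and 84.6 normalised reads in wild type vesicles and 0, 0.660 and 0.730 in wild type cells. Their means reached the limit of 10 through the vesicles alone, so the difference follows from the rule and is given as a description. Pooled over replicates, each arm had 249 to 251 reads in wild type vesicles and 0 to 2 reads in wild type cells. miR-6845-5p and miR-4664-5p had 0 reads in wild type cells, and against a floor of 3 reads over that group they were at least 176-fold and 178-fold higher in vesicles, which covers counting error only. Without the 6 arms the median log2 difference over the other 66 members was -0.05.

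miR-126-3p had 15.9, 18 and 16.0 in wild type vesicles and 1.91, 0.660 and 6.57 in wild type cells (log2 fold change 2.41, SE 0.42, adjusted p = 1.81e-05). This member reached the limit of 10, and was tested, through the vesicles, with a mean of 7.16 over the 9 cell libraries, so this difference too is a description. miR-126-5p had 46.3, 48.4 and 36.5 in wild type vesicles and 21.0, 13.9 and 14.6 in wild type cells (log2 fold change 1.37, SE 0.28, adjusted p = 0.000127). Neither arm overlapped, but miR-126-5p lost its call under library totals and fell just below 0 (0.761). The blood cell marker miR-142-5p was at 1.46 to 14.0 in all 9 vesicle libraries and at 0 in all 9 cell libraries, while miR-142-3p, miR-144-3p and miR-146a-5p had medians between 0 and 1.17 in vesicles and between 0 and 0.637 in cells. Their part in the miR-126 values was not tested. miR-30c-5p had 69.4, 52.5 and 37.9 in wild type vesicles and 17.8, 9.24 and 7.30 in wild type cells (log2 fold change 2.17, SE 0.35, adjusted p = 7.32e-06), and its call ended under library totals (0.0647).

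The arms of miR-6516 were both higher in vesicles. miR-6516-5p had 171, 199 and 175 in wild type vesicles and 38.2, 33.6 and 43.8 in wild type cells (log2 fold change 2.21, SE 0.22, adjusted p = 5.51e-09), and miR-6516-3p had 198, 225 and 209 and 86.6, 67.9 and 97.8 in the same order (log2 fold change 1.33, SE 0.19, adjusted p = 1.2e-06). Neither overlapped, library totals turned miR-6516-3p to -0.18 and ended its call (0.387), and ACA47 averaged 273 ± 7.84 in the vesicles and 97.2 ± 17.1 in the cells (SD, n = 3 each). As deposited, all 3 members of the miR-99, miR-100 and miR-125 families were higher in vesicles, but under library totals miR-99b-5p (-0.88) and miR-125a-5p (-0.84) were called lower and miR-125b-5p was not called. miR-125b-5p had a mean of 5.56 over the 9 cell libraries and was tested through the vesicles. miR-99b-5p had 49.1, 52.5 and 48.1 in wild type vesicles and 31.2, 33.6 and 32.9 in wild type cells (log2 fold change 0.60, SE 0.21, adjusted p = 0.0137), miR-125a-5p a log2 difference of 0.66 and miR-125b-5p of 1.36. The calls of miR-125a-5p and miR-125b-5p were lost without wild type vesicle replicate 1 (0.0649 and 0.0923), and that of miR-125b-5p also without wild type cell replicate 2 (0.138). Of the abundant members, miR-342-3p (log2 fold change 0.87, SE 0.22, adjusted p = 0.000993) and miR-191-5p (log2 fold change 0.88, SE 0.18, adjusted p = 0.00012) were higher in vesicles as deposited and lower by library totals.

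Members lower in vesicles led with miR-296-3p, from the imprinted GNAS locus, which had 2.89, 6.91 and 1.46 normalised reads in wild type vesicles and 21.7, 21.1 and 34.3 in wild type cells (log2 fold change -2.62, SE 0.38, adjusted p = 1.67e-06). miR-744-5p, hosted by MAP2K4, had 17.3, 8.30 and 5.84 in wild type vesicles and 46.5, 54.1 and 81.0 in wild type cells (log2 fold change -2.51, SE 0.34, adjusted p = 5.85e-07). The mirtron miR-877-5p had 28.9, 22.1 and 17.5 in wild type vesicles and 86.6, 95.0 and 134 in wild type cells (log2 fold change -2.16, SE 0.23, adjusted p = 1.54e-08). The highest vesicle value of each was under the lowest cell value. miR-1306-5p (-1.88, SE 0.27), miR-1307-3p (-1.52, SE 0.19), miR-423-5p (-1.51, SE 0.23) and miR-374b-5p (-1.21, SE 0.18) were also lower on the log2 scale. Of the 7 members of the miR-23, miR-27 and miR-24 clusters 5 were lower, 4 of them the chromosome 19 set. Of the 22 lower members, miR-1908-5p was tested only through the cells, where it is high.

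The arms of 1 hairpin could differ in opposite directions. miR-505-5p had 7.23, 4.15 and 8.75 in wild type vesicles and 24.8, 24.4 and 35.0 in wild type cells (log2 fold change -1.95, SE 0.34, adjusted p = 1.65e-05). miR-505-3p had 43.4, 26.3 and 21.9 in wild type vesicles and 6.37, 6.60 and 8.76 in wild type cells (log2 fold change 1.89, SE 0.43, adjusted p = 0.000421). The 5p arm was thus lower and the 3p arm higher in vesicles, without overlap in either, although the call of miR-505-3p ended under library totals (0.310).

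**Figure D4:**
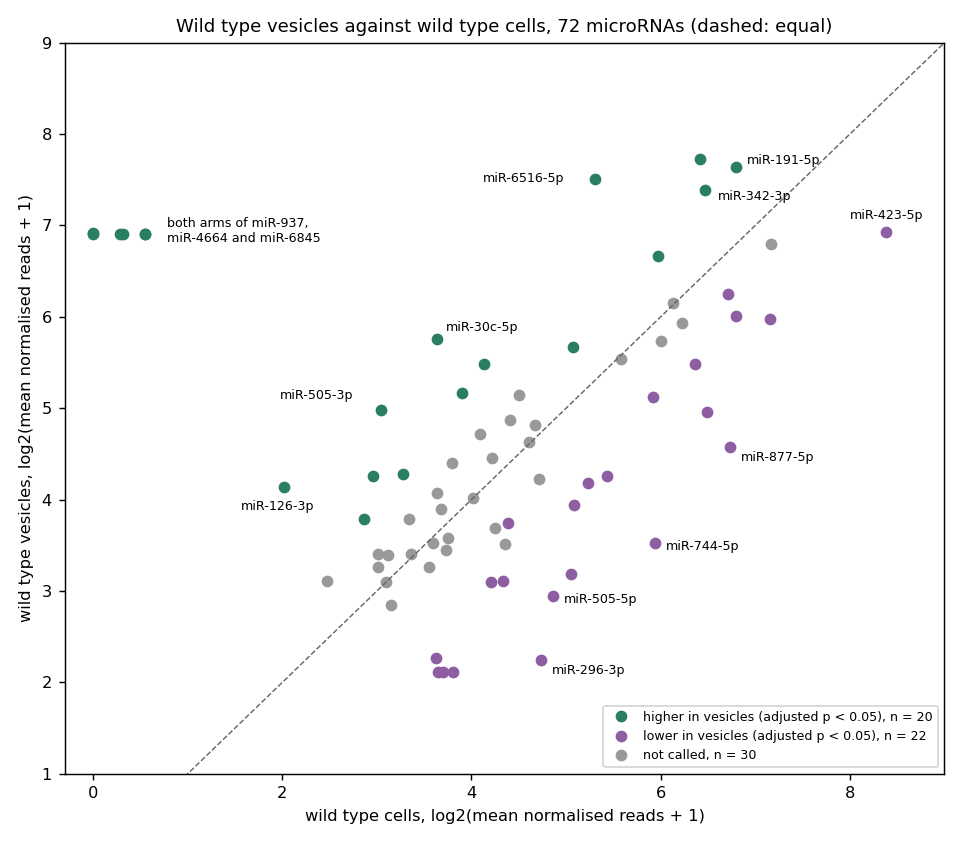
Mean level of the 72 members in wild type vesicles (y axis) against wild type cells (x axis), both as log2(mean normalised reads + 1), with the dashed line at equal levels. The 6 chromosome 8 arms stand at the left edge, and the 20 members called higher and 22 called lower in vesicles are coloured.

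The difference between vesicles and cells was itself compared between genotypes. It changed in 10 members in ATG7-/- cultures (4 higher and 6 lower than in wild type cultures, against 26.3% and 28.7% over all 905 features). It changed in 14 members in ATG12-/- cultures (10 higher and 4 lower, against 14.4% and 12.0%). By source of reads the 10 are 7, since 4 of them are chromosome 8 arms. edgeR and DESeq2 on the recovered reads each called 5 higher, with 4 lower by edgeR and 6 by DESeq2. Without wild type vesicle replicate 1 the counts were 6 higher and 7 lower for ATG7-/- and 15 and 6 for ATG12-/-. The comparisons share the wild type libraries with each other and with those above. Library totals ended all 4 higher calls and gave 14 lower for ATG7-/-, and gave 1 higher and 13 lower for ATG12-/-. Of all calls, 17.9% were higher under library totals for ATG7-/- and 63.6% under TMM over microRNAs, against 47.8% as deposited. For ATG12-/- the shares were 32.4% under TMM over all features, 6.32% under library totals and 54.4% as deposited. For ATG12-/- the 10 higher calls also became 5 without ATG12-/- vesicle replicate 3, 6 without wild type vesicle replicate 2, 4 without wild type vesicle replicate 3, 6 without wild type cell replicate 2 and 5 without wild type cell replicate 3.

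miR-9-3p changed most in the ATG7-/- cultures. It had 6.59, 11.7 and 7.96 in ATG7-/- vesicles and 18.1, 29.5 and 24.3 in ATG7-/- cells, and 13.0, 13.8 and 11.7 in wild type vesicles and 7.64, 3.96 and 7.30 in wild type cells. Vesicles were thus below cells in the knockout and above them in wild type, the second as deposited only, since library totals gave -0.40 in wild type. The change was -2.33 (SE 0.47, adjusted p = 0.000335). In ATG12-/- cultures it had 8.27, 15.9 and 7.54 in vesicles and 23.2, 18.6 and 21.0 in cells, with a change of -1.95 (SE 0.47, adjusted p = 0.00496).

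The arms of miR-6516 also lost part of their vesicle excess. For miR-6516-5p the ATG7-/- vesicles had 72.5, 73.6 and 76.9 and the ATG7-/- cells 65.9, 46.7 and 30.0, a change of -1.51 (SE 0.31, adjusted p = 0.000391) from wild type. In ATG12-/- cultures the vesicles had 99.3, 90.2 and 86.7 and the cells 49.5, 39.6 and 58.0, a change of -1.30 (SE 0.31, adjusted p = 0.0045). These calls, those of miR-6516-3p and those of miR-9-3p held without any 1 library and under all 3 other scalings, in both knockouts.

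In the other direction, the vesicle minus cell difference of miR-877-5p was higher by 1.09 on the log2 scale (SE 0.32, adjusted p = 0.00739) in ATG7-/- cultures and by 1.28 (SE 0.32, adjusted p = 0.0066) in ATG12-/- cultures. Its levels were 64.6, 52.6 and 79.6 in ATG7-/- vesicles and 194, 111 and 118 in ATG7-/- cells, and 64.8, 61.0 and 62.2 in ATG12-/- vesicles and 121, 111 and 117 in ATG12-/- cells. Both calls ended under library totals (0.121 for ATG7-/- and 0.106 for ATG12-/-). miR-423-5p changed by 1.29 (SE 0.33, adjusted p = 0.00676) and miR-425-5p by 1.42 (SE 0.34, adjusted p = 0.0045) in ATG12-/- cultures, and library totals ended both (0.0789 and 0.0673).

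**Figure D5:**
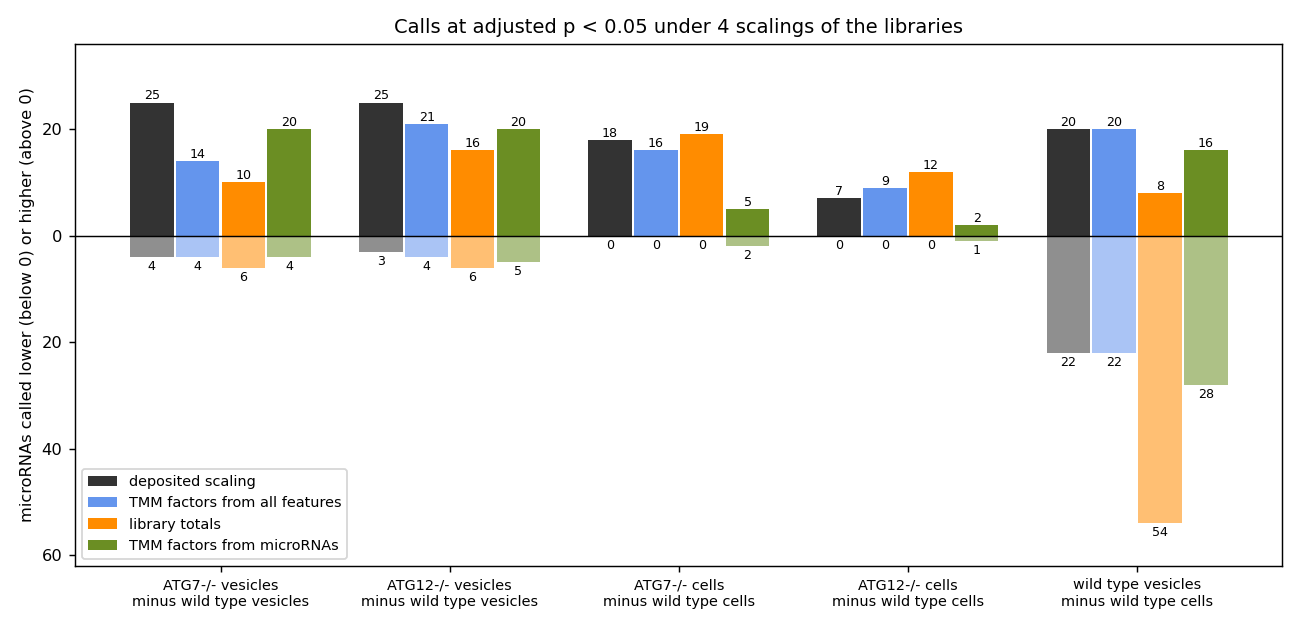
Number of members called higher (upward) and lower (downward) in each comparison under the deposited scaling and the 3 other scalings. For wild type vesicles minus wild type cells, 20 higher and 22 lower become 8 and 54 under library totals, and for ATG7-/- cells 18 higher become 5 under TMM over microRNAs.

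Short motifs that are known from microRNAs sorted into vesicles were searched in the mature sequences on the sense strand. GGAG, bound by hnRNPA2B1, was in 3 of the 60 members with a sequence (5%) and in 372 of all 2370 RefSeq mature sequences (15.7%). The 3 were miR-877-5p, miR-378a-3p and miR-296-3p. GGCU, bound by SYNCRIP, was in 9 of 60 (15%) and in 298 of 2370 (12.6%). Between wild type vesicles and cells, 0 of the 3 members with GGAG were called higher in vesicles and 2 lower. Of the 57 without it, 12 were higher and 18 lower. Of the 9 with GGCU 0 were higher and 4 lower, and of the 51 without it 12 and 16. The GGCU members include miR-27a-3p and miR-27a-5p, which share reads, and these counts were not tested. The end of GGAG can overlap the start of GGCU, and a match is a description only.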

How the data were processed

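Small RNA was measured in 18 libraries, 3 from each of 6 groups. The submitters' processing notes name the tools bedtools, DESeq2, Bowtie2 2.3 and cutadapt 2.3 and the builds hg38 and GRCh38; settings, annotation, filters and the treatment of multiply matching reads are not given in the sources used here. The deposited values, made by the authors, are a scaled signal. In every library all of them (100%) came out as whole multiples of 1 step, within 1e-06, so each was read as whole reads over the size factor of its library, and the whole reads were recovered. These numbers of reads do not separate PCR copies from molecules, so counting intervals and floors cover counting error only.

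The design had assumed raw counts; because of the unit, the main test was limma 3.58.1 (R 4.3.3) with a trend on log2(normalised reads + 1). A feature was tested where at least 3 fitted libraries reached 10. The fit held the 9 vesicle libraries for comparisons within vesicles, the 9 cell libraries for those within cells, and all 18 for vesicles against cells. Fold changes are on that log2 scale and are understated for low values. Adjusted p-values are Benjamini-Hochberg over all features tested, two-sided, called under 0.05.

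edgeR 4.0.16 and DESeq2 1.42.0 on the recovered reads were alternatives. edgeR called 287 features higher and 249 lower in ATG7-/- vesicles, 190 and 197 in ATG12-/- vesicles, 77 and 67 in ATG7-/- cells, 69 and 161 in ATG12-/- cells, and 356 and 389 between wild type vesicles and cells. Other alternatives were 3 scalings, pseudocounts of 0.5 and 5, no minimum or a minimum of 50, fits of only the groups compared, a replicate block and leaving out each library. In counts simulated from the mean levels of these libraries, 2-fold changes were recovered at 70.7 to 80.6% and 4-fold changes at 97.9 to 100%, over 841 to 890 features, and 0.621 to 1.23% of unchanged features were called. The simulation gave every feature the same fixed spread, which was not estimated from these libraries, and held no library that stands apart. These rates therefore hold for that setting only and do not measure error in the real data.

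The members and the lists of families were chosen with earlier results of these data known. Members named are the 12 with the highest mean, in each comparison up to 8 called members per direction with the largest change and no overlap between groups, members of a listed family, and the 4 on each side of the limit. Other called members are named after their values were seen.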

Additional observations from a re-analysis of the deposited data

Results flagged for a closer look

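A difference between genotypes in the vesicle minus cell difference, tested as an interaction in the fit over all 18 libraries, drew attention to the following members, with values on the log2 scale. For ATG7-/- against wild type cultures the changes were -2.33 (miR-9-3p), -1.68 (miR-126-3p), -1.62 (miR-219a-5p), -1.51 (miR-6516-5p), -1.41 (miR-7-5p), -1.21 (miR-6516-3p), 0.96 (miR-342-3p), 1.09 (miR-877-5p), 1.52 (miR-296-3p) and 1.54 (miR-505-5p). For ATG12-/- against wild type cultures they were -1.95 (miR-9-3p), -1.50 (miR-7-5p), -1.30 (miR-6516-5p), -0.93 (miR-6516-3p), 0.85 (miR-99b-5p), 0.98 (miR-342-3p), 1.09 (miR-424-3p), 1.28 (miR-877-5p), 1.29 (miR-423-5p) and 1.42 (miR-425-5p), and for the chromosome 8 arms 1.36 (miR-6845-5p), 1.60 (miR-6845-3p), 1.63 (miR-937-3p) and 1.85 (miR-937-5p). Those 4 arms are 1 source of reads with 0 to 3 reads in any cell library, so their cell values carry little. The 2 comparisons share the wild type libraries.

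For ATG7-/-, library totals ended the calls of miR-342-3p, miR-877-5p, miR-296-3p and miR-505-5p, and TMM over microRNAs that of miR-7-5p. Leaving out 1 of 12 libraries ended those of miR-126-3p (2 libraries, adjusted p up to 0.0757) and miR-296-3p (2 libraries, up to 0.0676). For ATG12-/-, the call of miR-99b-5p was lost without 11 of the 12 libraries (up to 0.144), miR-342-3p without 6 (0.0762), miR-424-3p without 3 (0.055), miR-7-5p without 1 (0.0522), miR-6845-5p without 10 (0.135), miR-937-3p without 8 (0.135) and miR-6845-3p without 5 (0.0922). Library totals ended all ATG12-/- calls above 0 but that of miR-937-5p. TMM over all features ended those of miR-99b-5p, miR-342-3p, miR-424-3p, miR-937-3p and miR-6845-5p, and TMM over microRNAs that of miR-6845-5p.

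The knockouts also differed from each other in vesicles. ATG12-/- minus ATG7-/- vesicles gave -1.55 (miR-454-3p), -0.50 (miR-99b-5p) and, for the 6 chromosome 8 arms, 0.81 (miR-4664-3p), 0.81 (miR-4664-5p), 0.81 (miR-937-5p), 0.82 (miR-937-3p), 0.83 (miR-6845-3p) and 0.83 (miR-6845-5p). Each of these 8 calls was lost without at least 1 library.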

How the results depend on the processing

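Of 9590 values of single members under an alternative, 8989 stayed on their side of the threshold with no call changing sign, 397 lost a call, 180 gained one and 24, called under at least 1 of the 2 settings, changed sign. Of 336 alternative values of the counts of called members and of their summed shares, 265 stayed the same. For a count this meant within 1.5 times the count reported, or 0 in both, and for a share within the SD of its group. Those 24 were all in wild type vesicles minus cells under library totals, which assume equal totals of small RNA. Their log2 differences became -0.64 (miR-342-3p), -0.63 (miR-191-5p), -0.18 (miR-6516-3p), -0.84 (miR-125a-5p), -1.48 (miR-331-3p), -0.88 (miR-99b-5p), -0.095 (miR-126-5p), -1.45 (miR-16-5p), -0.18 (miR-574-3p), -1.43 (miR-425-5p), -1.33 (miR-424-3p), -0.83 (miR-128-3p), -0.98 (miR-324-5p), -0.82 (miR-532-3p), -0.34 (miR-186-5p), -1.19 (miR-7-1-3p), -1.01 (miR-625-3p), -1.20 (miR-30e-3p), -0.86 (miR-219a-5p), -0.40 (miR-9-3p), -1.08 (miR-149-5p), -1.32 (miR-30a-3p), -0.91 (miR-378a-5p) and -1.05 (miR-151a-5p).

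Members called higher in ATG7-/- vesicles were 14 with TMM over all features, 10 with library totals, 15 with no minimum and 11 with a minimum of 50; those lower were 2 with a minimum of 50 or without miR-6516. In ATG12-/- vesicles 16 were higher with library totals and 15 with a minimum of 50, and 6 were lower with library totals, 5 with TMM over microRNAs and 1 without miR-6516. Between the knockouts' vesicles 1 was lower with TMM over all features, no minimum or a minimum of 50, and 1 was higher with shared reads counted once. In ATG7-/- cells 5 were higher and 2 lower with TMM over microRNAs, and 8 higher with a minimum of 50. In ATG12-/- cells 12 were higher with library totals, 2 with TMM over microRNAs or no minimum and 3 with a minimum of 50, and 1 was lower with TMM over microRNAs. Between wild type vesicles and cells 8 were higher and 54 lower with library totals, and 10 lower with a minimum of 50. For the genotype change of that difference in ATG7-/- cultures, 10 were lower with TMM over all features, 14 with library totals and 3 with a minimum of 50, and 0 were higher with library totals and 11 with TMM over microRNAs. In ATG12-/- cultures 5 were higher with TMM over all features, no minimum, edgeR or DESeq2 and 1 with library totals, and 13 were lower with library totals and 2 without miR-6516. A minimum of 50 or none changes how many features are tested; for the other settings the cause was not tested. The share of the members without miR-6724-5p in the total was 0.117% in ATG7-/- vesicles and 0.126% in wild type vesicles, and of microRNA reads alone 31.6% (ATG7-/-), 34.5% (ATG12-/-) and 32.1% (wild type) in vesicles and 19.9%, 18.6% and 18.8% in cells, in the same order. In these shares, reads shared by several entries are counted in each.

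Leaving out each library gave 13 to 33 higher and 3 to 4 lower in ATG7-/- vesicles, 19 to 30 and 2 to 5 in ATG12-/- vesicles, 0 to 6 and 0 to 3 between the knockouts' vesicles, 8 to 16 higher in ATG7-/- cells, 2 to 7 higher in ATG12-/- cells, and 18 to 22 and 20 to 22 between wild type vesicles and cells. The change of that difference gave 3 to 6 and 5 to 9 for ATG7-/- and 4 to 15 and 3 to 6 for ATG12-/-.

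Groups share replicate numbers, and the labels do not say whether same-numbered samples belong together. In 0 of 8 pairs of groups did all same-numbered samples deviate together at a correlation over 0.1 (range -0.485 to 0.267). Deviations from a mean of 3 libraries cannot show that samples were unpaired, and the main test used no pairing. A replicate block gave 22 higher and 4 lower in ATG7-/- vesicles, 25 and 3 in ATG12-/- vesicles, 0 and 2 between the knockouts' vesicles, 14 and 0 in ATG7-/- cells and 5 and 0 in ATG12-/- cells.

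Depth limits members near the mean of 10, which rest on a few reads in a vesicle library, and several entries share reads.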
